A study of Rattus norvegicus with 25 samples.

Results

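The comparison asked how rat molars replanted after 60 min of drying differed from molars replanted after 5 min, 7 days after replantation. Its members were the 12 day 7 libraries of the 25 in the series. They comprised 6 of delayed replantation (DR, 60 min dry) and 6 of immediate replantation (IR, 5 min dry). The first upper molars of Sprague–Dawley rats had been pulled, left dry and put back, and RNA was taken from tooth together with periodontal ligament. All libraries carried the age postnatal day 21, without a statement of which event that age refers to. The 12 libraries were fitted alone, with the replicate number of the title as a pairing block. The labels do not say whether the 6 libraries of a group came from separate animals, so the p-values measure the spread between libraries.

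The periodontal ligament is the sheet of collagen fibres and cells that holds a tooth root in its socket. Drying kills ligament cells on the root, and a replanted root whose ligament is lost is commonly resorbed by osteoclasts and replaced by bone. Healing of the socket brings in neutrophils, then macrophages and lymphocytes, new vessels, and fibroblasts that rebuild the matrix.

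DR libraries held 5043739 to 8811662 counts and IR libraries 6475134 to 8598531 (2-sided exact permutation p = 0.255), from a kit that counts transcripts near their 3′ end. Ribosomal RNA entries took 22.9 ± 7.28% of counts in DR and 18.5 ± 4.79% in IR (2-sided exact permutation p = 0.251). The labelled tissue showed its main matrix genes, with Col1a1 between 14.93 and 16.41 and Postn, a ligament matrix protein, between 8.47 and 9.95 on the log2 CPM scale (library-scaled counts, prior count 2). Dspp, the defining gene of odontoblasts, had 0 to 22 counts per library and was too low to test, as was Tnfsf11, the osteoclast-inducing ligand, with 0 to 5. Genes of tissues that the labels do not name were present as well. The nasal and salivary gland list took 0.0849% to 8.27% of counts and the skeletal muscle list 0.00482% to 0.332%. On the first principal component, with 38.7% of the variance, both libraries of number 6 stood at the top (64.4 in DR, 78.5 in IR), followed by DR replicate 4 at 52.3, while the other 9 lay between -56.5 and 3.57.

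No gene passed the test between 60 and 5 min of drying. Of 10782 genes tested with edgeR's quasi-likelihood test, 0 (0.0%) had a Benjamini-Hochberg adjusted p under 0.05, and the smallest adjusted p was 0.338, for Mzb1. At an unadjusted p under 0.05 there were 783 genes (7.26%), 491 higher in DR (4.55%) and 292 lower (2.71%). With no difference between the groups, 539 would be expected. The count at an unadjusted p under 0.05 was 412 without number 4. With no replicate block it was 396 over all libraries and 1042 without IR replicate 6. The median log2 difference over all genes tested was 0.0091, and 51.6% of genes were positive. In 260 genes (2.41%) DR was the higher library of all 6 pairs and in 181 (1.68%) the lower. Even odds in each pair would give 1.56% each way, so 6 of 6 pairs is given below as a description and not as a test. DESeq2 with the same block called 47 genes higher (0.454% of 10363) and 12 lower (0.116%), limma-voom called 4 lower (0.0371%), and limma-voom with sample quality weights called 0. Without both libraries of number 6, list medians kept the direction given below for the B and plasma cell list (0.85), the olfactory and ciliated epithelium list (1.04), cartilage matrix (0.84), skeletal muscle (-2.41), odontoblast and dental mesenchyme (-0.50), osteoclast resorption (-0.28), macrophage (-0.39) and endothelial genes (-0.38). Many values moved when libraries were left out. Each library was left out in turn in fits with no replicate block. Then 70 of 128 named genes and 36 of 39 list medians changed sign or moved by over 1.5 times. A library of number 6 gave the lowest or highest such value for 35 of the genes and 18 of the lists. These counts also hold the effect of dropping the block. With the block kept, leaving out 1 number moved 41 of the 128 genes and 34 of the 39 list medians by the same rule. All differences below are DR minus IR on the log2 scale, with the standard error of edgeR's fit. The gene lists were chosen with earlier results of these data known. Counts of list members by sign or p are therefore given as a description and not as a test.

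Genes of B cells and plasma cells stood higher in DR. All 9 tested members of that list were positive, with a median of 0.76 beside 0.0091 over all genes. An unadjusted p under 0.05 was seen in 5 of them, where 4.55% of all genes tested were higher at that p. With no block the median was 0.63, and 0.41 when DR replicate 2 was also left out. Of the 14 genes listed, 11 were in the files and 1 was at 0 in all 12 libraries. The mean over the 9 members was 3.84, 4.39, 1.95, 3.60, 3.93 and 3.82 log2 CPM in DR replicates 1 to 6, and 2.52, 4.04, 0.87, 3.15, 2.81 and 3.46 in IR. DR was the higher library of every pair, by 0.78 ± 0.44 (SD over 6 pairs), while number 3 was lowest in both groups. In bulk tissue, more cells of a type and more RNA per cell cannot be told apart.

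Mzb1, a chaperone that plasma cells use for antibody assembly, led all genes. Its level ran from 2.61 to 5.90 log2 CPM in DR (median 4.87) and from 0.70 to 4.83 in IR (median 3.83). The groups overlapped, but each DR library stood above its IR partner, by 0.71 to 1.91. The fitted difference was 1.30 (SE 0.19), a 2.47-fold higher level, with an edgeR adjusted p of 0.338 and a DESeq2 adjusted p of 3.324e-05. Without any 1 number it stayed between 1.18 and 1.42. Ms4a1, the B cell antigen CD20, ran from 1.004 to 4.54 in DR (median 4.11) and from -0.33 to 4.13 in IR (median 2.42). It was higher in DR in 6 of 6 pairs, at 1.40 (SE 0.31; edgeR adjusted p = 0.68, DESeq2 adjusted p = 0.0134). Cd79b, part of the B cell receptor, was at 0.68 (SE 0.25) and Pou2af1, a B cell transcription coactivator, at 0.76 (SE 0.30), each higher in 5 of 6 pairs. With no block, Cd79b was at 0.34 without IR replicate 3 and Pou2af1 at 0.41 without DR replicate 2. Cr2, the complement receptor of mature B cells, was at 1.23 (SE 0.55), higher in all 6 pairs. Fcrla and Blnk stood near 0, at 0.03 and 0.13.

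T cell and natural killer cell genes leaned the same way with smaller values. In that list 11 of 14 members were positive (median 0.43; 0.14 with no block and without IR replicate 3). Over all genes tested 51.6% were positive and 7.26% had an unadjusted p under 0.05, and 1 of the 14 members had one. This was Cd3e, a chain of the T cell receptor complex. Its level ran from 2.33 to 3.50 log2 CPM in DR (median 2.82) and from 0.11 to 2.99 in IR (median 1.99). All 6 pairs were higher in DR, with a difference of 1.16 (SE 0.34; edgeR adjusted p = 0.68), and 0.74 with no block and without IR replicate 1. Zap70, the kinase that the receptor activates, was at 1.03 (SE 0.55), Nkg7, a granule protein of cytotoxic cells, at 0.57 (SE 0.29), and Cd3d at 0.45 (SE 0.26). With no block and without IR replicate 3 these were at 0.58, 0.33 and 0.05. The coreceptor Cd8a was at -0.01, Cd2 at -0.16 and Cd5 at -0.22, so members of the list differed among themselves. Bcl11b, a transcription factor of T cell development that is also expressed in tooth epithelium, was at 0.70 (SE 0.18). It was higher in DR in 6 of 6 pairs, but by only 0.007 in pair 6. With no block and without DR replicate 4 it was at 0.41. Its highest levels, 6.6, 6.1 and 6.1 log2 CPM, were in DR replicates 4 and 6 and IR replicate 6. The T cell list mean was highest in DR replicate 5, at 3.56. Among cytokines and chemokines 8 of 18 members were positive, and 1 had an unadjusted p under 0.05, beside 7.26% of all genes. That member was the lymphoid chemokine Ccl19, at 0.54 (SE 0.21), and at 0.08 with no block and without DR replicate 2.

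**Figure D1:**
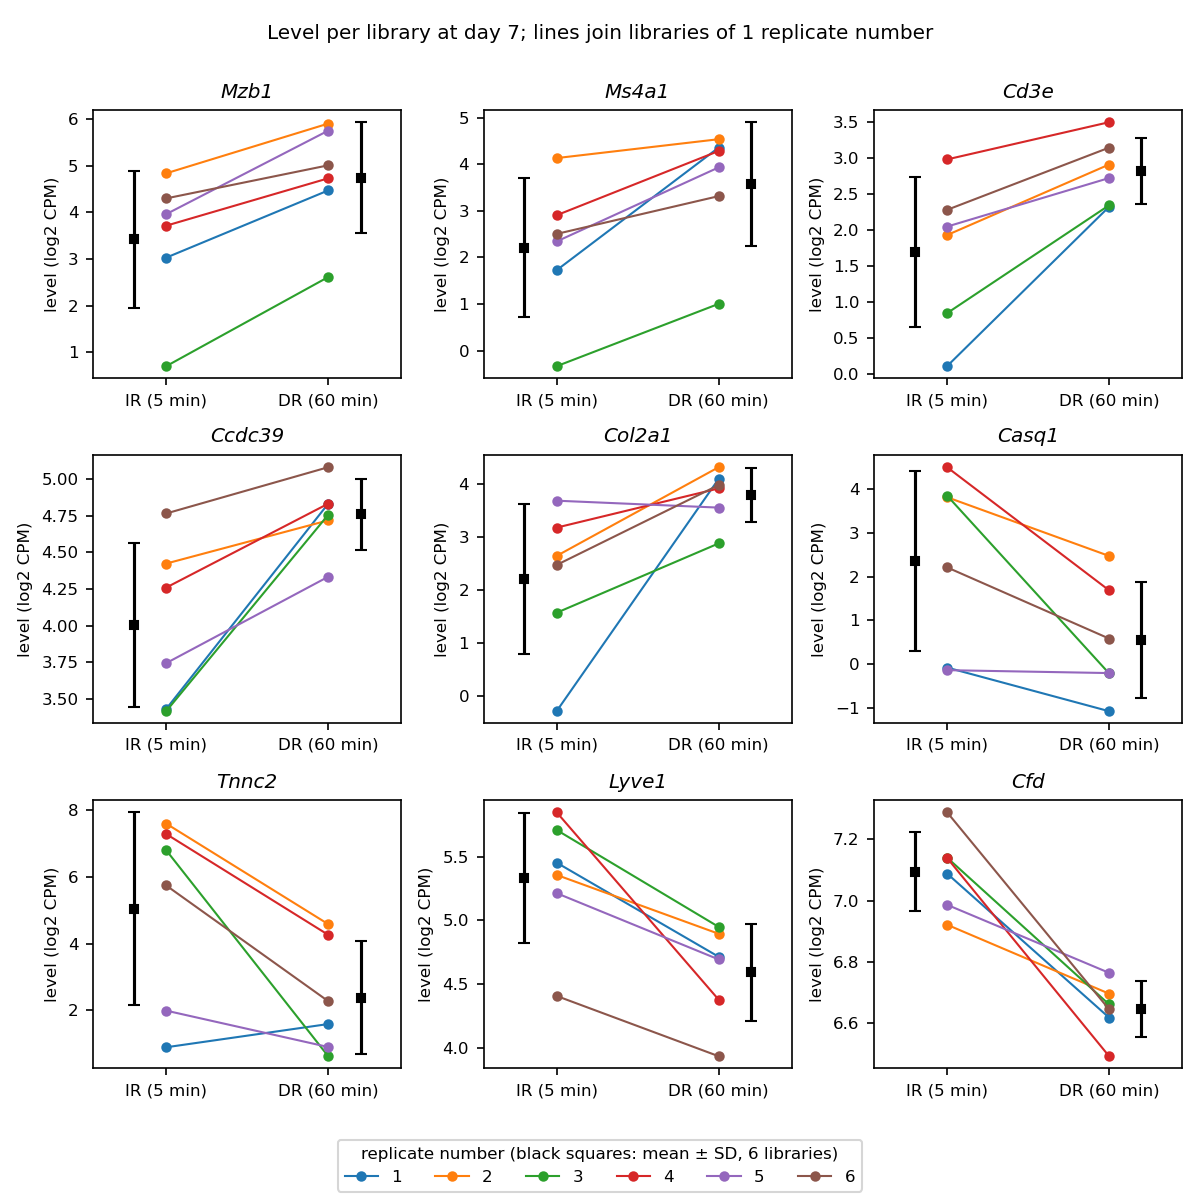
Level of 9 genes in the 12 day 7 libraries (y axis, log2 CPM; each panel has its own scale), IR (5 min dry) at the left and DR (60 min dry) at the right. Coloured lines join libraries of 1 replicate number and black squares show the mean and SD of 6 libraries. Mzb1, Ms4a1, Cd3e and Ccdc39 lay higher in DR in all 6 pairs, Col2a1 in 5 of 6, and Casq1, Lyve1 and Cfd lay lower in all 6. Tnnc2 was lower in 5 of 6, and the groups separate without overlap for Cfd alone.

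Genes of motile cilia and of olfactory epithelium also stood higher in DR. All 9 tested members of that list were positive, with a median of 0.87. An unadjusted p under 0.05 was seen in 5 of them, where 4.55% of all genes tested were higher at that p. With no block the median was 0.69, and 0.41 when DR replicate 6 was also left out. The list mean was 3.64, 3.12, 3.99, 5.05, 3.16 and 5.29 log2 CPM in DR replicates 1 to 6 and 1.55, 3.36, 2.50, 3.77, 2.19 and 5.18 in IR. DR was higher in 5 of 6 pairs, by 0.95 ± 0.88 (SD), and number 6 was the highest pair with a difference of only 0.10. Ccdc39, needed to attach the inner dynein arms of cilia, ran from 4.33 to 5.08 in DR (median 4.79) and from 3.42 to 4.76 in IR (median 4.001). Its difference was 0.75 (SE 0.19; edgeR adjusted p = 0.68), with all 6 pairs higher in DR. Tekt1, a filament protein of ciliary microtubules, was at 0.87 (SE 0.32), Dnai2, an intermediate chain of the dynein arm, at 0.97 (SE 0.38), and Foxj1, the transcription factor of ciliated cells, at 1.17 (SE 0.48). Gng13, a G protein subunit of olfactory and taste cells, was at 1.55 (SE 0.54), and its value moved between 0.20 and 2.81 over the alternative settings. With no block and without DR replicate 6, Tekt1 was at 0.43, Dnai2 at 0.52 and Gng13 at 0.20.

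The positive genes of smallest p, taken among genes with an average of at least 3 log2 CPM, included several outside the lists. Wdr78, a factor for axonemal dynein assembly, ran from 4.09 to 5.03 log2 CPM in DR (median 4.47) and from 2.50 to 4.50 in IR (median 3.60). It was higher in DR in all 6 pairs, at 0.9997 (SE 0.21; edgeR adjusted p = 0.68, DESeq2 adjusted p = 0.0134). Ropn1l, a ropporin-like protein of the sperm tail and cilia, was at 1.54 (SE 0.36), and Odf2, a protein of centriole appendages, at 0.85 (SE 0.21). Others were Slc24a4, a sodium, calcium and potassium exchanger known from enamel and olfactory neurons, at 1.96 (SE 0.39), and Hspa4l, an Hsp110-type chaperone, at 1.38 (SE 0.30). With no block, Slc24a4 was at 1.26 without DR replicate 6 and Hspa4l at 0.91 without DR replicate 4. Lgi2, a secreted protein of the LGI family, stood at 1.63 (SE 0.39), the ubiquitin ligase Trim37 at 0.78 (SE 0.19) and the zinc finger gene Zfp800 at 0.74 (SE 0.15). Ccdc39, Wdr78, Trim37 and Gng13 each overlap another gene with counts in the RefSeq annotation, so their reads may be divided with Ttc14, Mier1, Ppm1e and Chtf18.

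Secretory genes of airway and gland did not share 1 direction. Of 12 tested members of the nasal and salivary gland list, 5 were positive and 7 negative (median -0.41). That median was -1.90 with no block and -2.96 when DR replicate 6 was also left out. Bpifa1, a secreted protein of the upper airway, ran from 10.09 to 15.72 log2 CPM in DR (median 12.87) and from 7.58 to 15.32 in IR (median 11.17). It was higher in DR in 6 of 6 pairs, at 1.98 (SE 0.58; edgeR adjusted p = 0.68), but its value moved between 0.67 and 3.51 over the alternative settings. Agr3, a disulfide isomerase of ciliated airway cells, was at 1.56 (SE 0.50) with 6 of 6 pairs higher. Aqp5, the water channel of secretory cells, was at 1.35 (SE 0.54) with 4 of 6 pairs higher. With no block and without DR replicate 6, Agr3 was at 0.67 and Aqp5 at 0.47. Dnase1, a secreted nuclease abundant in salivary glands, was lower in DR in 6 of 6 pairs, at -2.19 (SE 1.46), by 0.03 to 8.32. It was at -5.62 with no block, and ran from -5.94 to -1.42 over the alternative settings. It shares its locus with Trap1. The part of such tissue in the ciliary values was not tested.

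Skeletal muscle genes had the list median farthest from 0, and they stood lower in DR. All 15 tested members were negative with a median of -2.63. An unadjusted p under 0.05 was seen in 8 of them, where 2.71% of all genes tested were lower at that p. Of the 21 genes listed, 18 were in the files and none was at 0 in all 12 libraries. The list mean was 2.23, 4.52, 1.07, 3.97, 1.93 and 2.15 log2 CPM in DR replicates 1 to 6 and 1.13, 6.63, 6.21, 6.99, 2.37 and 4.82 in IR. IR replicates 2, 3, 4 and 6 stood above every DR library, while IR replicates 1 and 5 lay within the DR range. Pair 1 went the other way, at 1.11, and the other 5 pairs ran from -0.44 to -5.14.

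Casq1, the calcium-storing protein of the sarcoplasmic reticulum, was lower in DR in all 6 pairs. Its level ran from -1.08 to 2.48 log2 CPM in DR (median 0.19) and from -0.14 to 4.51 in IR (median 3.02). Replicate 1 was at -1.08 in DR and -0.08 in IR, and replicate 5 at -0.21 and -0.14. Such levels stand for few counts, so the signs of these pairs rest on little. The difference was -2.26 (SE 0.52), a 4.79-fold higher level in IR (edgeR adjusted p = 0.68, DESeq2 adjusted p = 0.0101). Tnnc2, the fast troponin C, ran from 0.63 to 4.59 in DR (median 1.94) and from 0.90 to 7.60 in IR (median 6.27). It was at -3.09 (SE 0.85; edgeR adjusted p = 0.68), past the threshold by limma-voom (adjusted p = 0.0458) and not by DESeq2 (adjusted p = 0.0566). The fast myosin heavy chain Myh1 was at -3.49 (SE 1.04) and the fast troponin T Tnnt3 at -2.01 (SE 0.59), each lower in 5 of 6 pairs. Outside the list, Pygm, the glycogen phosphorylase of muscle, was at -1.43 (SE 0.31), the muscle filament gene Des at -1.08 (SE 0.34), and Slc25a4, the ADP and ATP carrier of muscle mitochondria, at -0.37 (SE 0.10). The slow troponin Tnnt1 was lower in 6 of 6 pairs, at -0.87 (SE 0.30), and at -0.44 with no block and without IR replicate 3.

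Among the 12 genes that DESeq2 called lower, chosen here after their values were seen, Smtnl1, Lmod2, Sh3bgr, Casq1, Pygm, Cryab, Sypl2, Des, Tnnt3 and Tnni2 are known from muscle. Lyve1 and the imprinted RNA H19 made up the rest. DESeq2 called more genes higher (47), among them Mzb1, Ms4a1, Slc24a4, Wdr78, Ropn1l, Agr3 and Bpifa1 named above. Cryab overlaps Hspb2 and Tnni2 overlaps Ctsd and Syt8, so their reads may be divided. Smtnl1 was at -3.67 (SE 0.56) and Lmod2 at -2.87 (SE 0.64) in the DESeq2 fit. At day 3 Casq1 stood the other way, at 2.43 (SE 1.05 in the fit of 24 libraries). The difference between the 2 days was -4.85 for Casq1 and -5.11 for Tnnt3, and neither passed edgeR's interaction test after adjustment. That test called 0 of 11492 genes (0.0%), with a smallest adjusted p of 0.689. In it 346 genes had an unadjusted p under 0.05, a share below the 0.05 expected with no interaction. DESeq2 called 11 genes and limma-voom with quality weights 522.

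Upstream sequences are shown for the muscle genes of smallest p that had an entry, because the list members stood apart together. E-boxes spelled CAGCTG or CAGGTG, searched on both strands, are bound by muscle transcription factors of the MyoD family. The first 250 bases before the annotated start, from RefSeq's GRCr8 build, held at least 1 of them in 9 of 14 list members with a sequence, against 25.5% of 27457 genes. Capitals mark the matches, which are a description of the letters and not a measured site. Casq1 lies at chr13:87212711-87212960 on the minus strand, Tnnc2 at chr3:173935340-173935589 on the minus strand, and Myh1 at chr10:52384662-52384911 on the plus strand.
Casq1: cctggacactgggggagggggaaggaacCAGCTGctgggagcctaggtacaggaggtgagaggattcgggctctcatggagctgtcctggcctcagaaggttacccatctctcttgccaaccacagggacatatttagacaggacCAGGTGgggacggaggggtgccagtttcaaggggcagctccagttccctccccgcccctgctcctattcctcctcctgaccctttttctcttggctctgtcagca
Tnnc2: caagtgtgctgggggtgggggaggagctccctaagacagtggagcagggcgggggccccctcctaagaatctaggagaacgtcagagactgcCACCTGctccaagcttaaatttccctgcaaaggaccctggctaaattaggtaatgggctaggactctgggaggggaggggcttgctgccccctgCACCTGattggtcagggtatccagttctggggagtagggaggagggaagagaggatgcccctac
Myh1: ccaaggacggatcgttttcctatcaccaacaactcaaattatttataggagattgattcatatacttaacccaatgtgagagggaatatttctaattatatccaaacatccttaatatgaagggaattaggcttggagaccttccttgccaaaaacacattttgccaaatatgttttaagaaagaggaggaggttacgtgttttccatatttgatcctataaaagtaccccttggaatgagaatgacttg
Casq1 and Tnnc2 held 2 matches each and Myh1 held 0. For the ciliary list the searched letters were GTTGCC on both strands, the core of the site bound by RFX factors of ciliated cells. It was in 2 of 6 members with a sequence against 9.9% of all genes. Tekt1, at chr10:57479122-57479371 on the minus strand, held 1 match and Ccdc39, at chr2:118631585-118631834 on the minus strand, held 0.
Tekt1: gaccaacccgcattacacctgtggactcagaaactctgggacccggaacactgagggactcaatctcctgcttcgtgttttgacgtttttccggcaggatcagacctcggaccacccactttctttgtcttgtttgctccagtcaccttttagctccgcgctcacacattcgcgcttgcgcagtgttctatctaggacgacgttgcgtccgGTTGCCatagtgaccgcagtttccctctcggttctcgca
Ccdc39: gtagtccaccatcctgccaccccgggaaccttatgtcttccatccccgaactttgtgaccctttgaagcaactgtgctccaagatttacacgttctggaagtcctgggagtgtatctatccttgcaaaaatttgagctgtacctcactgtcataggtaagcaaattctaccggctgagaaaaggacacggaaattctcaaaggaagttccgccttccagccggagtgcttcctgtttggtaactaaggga

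**Figure D2:**
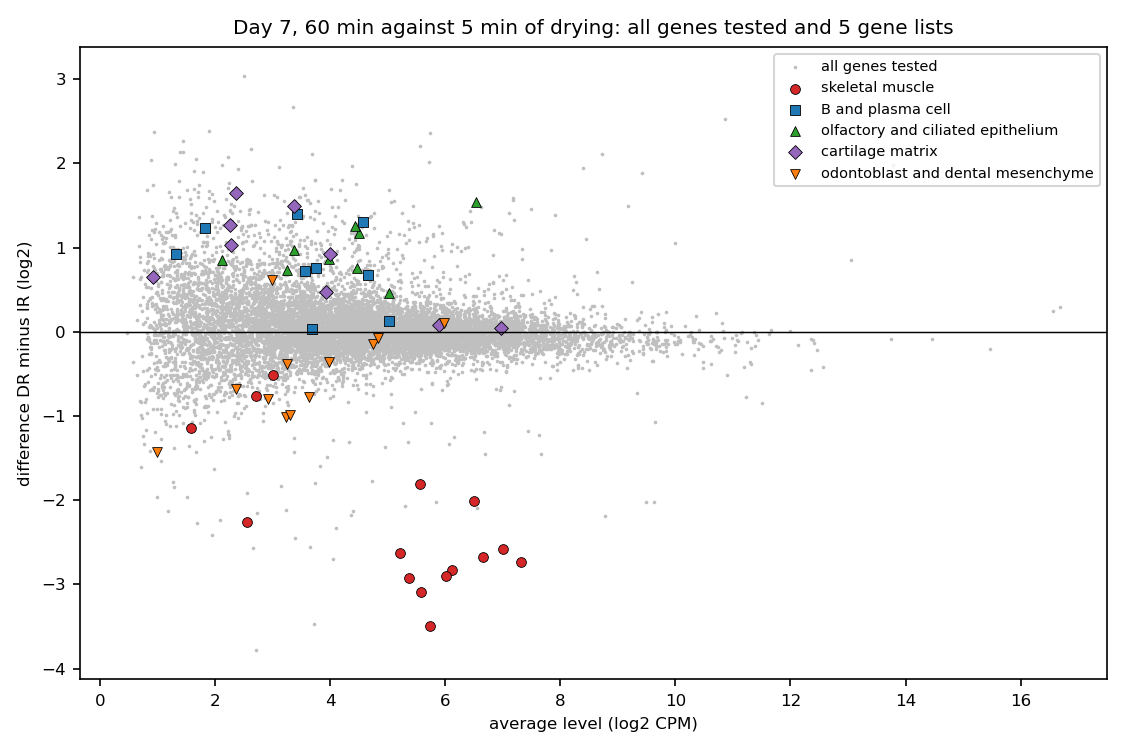
Log2 difference DR minus IR (y axis) against average level in log2 CPM (x axis) for the 10782 genes tested (grey) and 5 gene lists (coloured symbols). Among listed genes, skeletal muscle members lie lowest, down to -3.49, and the lowest grey point is Smtnl1 at -3.78. All members of the B cell, ciliary and cartilage lists lie above 0.

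Cartilage matrix genes were positive in all 9 tested members, with a median of 0.92. An unadjusted p under 0.05 was seen in 2 of them, where 4.55% of all genes tested were higher at that p. The median was 0.55 with no block and without IR replicate 3. Col2a1, the main collagen of cartilage, ran from 2.88 to 4.33 log2 CPM in DR (median 3.96) and from -0.29 to 3.69 in IR (median 2.56). DR was higher in 5 of 6 pairs, at 1.49 (SE 0.52; edgeR adjusted p = 0.68), and pair 1 alone differed by 4.40. Col9a2, a collagen on the surface of cartilage fibrils, was at 0.92 (SE 0.40), Col9a1 at 1.27 (SE 0.61) and the link protein Hapln1 at 1.03 (SE 0.52). With no block, Col9a2 was at 0.54 without DR replicate 6, Col9a1 at 0.50 without IR replicate 1 and Hapln1 at 0.62 without IR replicate 3. Sox9, the transcription factor of cartilage cells, was at 0.09 (SE 0.17) and Col11a2 at 0.05 (SE 0.30). The list mean was higher in 4 of 6 pairs, by 0.83 ± 0.94 (SD).

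Most tested genes of the odontoblast and dental mesenchyme list stood lower in DR. Dspp, the defining gene of odontoblasts, was too low to test, so odontoblasts themselves were not measured by it. Of 12 tested members 10 were negative (median -0.53). At an unadjusted p under 0.05, 3 were lower, beside 2.71% of all genes tested. The list mean was 3.13 ± 0.19 log2 CPM in DR and 3.60 ± 0.28 in IR (SD, n = 6), and it was lower in DR in all 6 pairs, by 0.23 to 0.92. Lhx8, a transcription factor of dental mesenchyme, ran from 1.75 to 3.58 in DR (median 2.74) and from 2.93 to 4.32 in IR (median 3.69). It was lower in DR in 6 of 6 pairs, at -0.99 (SE 0.36; edgeR adjusted p = 0.68), and at -0.67 without number 3. Barx1 and Dlx1, which pattern the molar field in the embryo, were at -0.77 (SE 0.28) and -1.02 (SE 0.39), each lower in 5 of 6 pairs, and Barx1 was at -0.44 with no block and without IR replicate 6. Msx2, which acts in dental and bone precursors, went the other way at 0.61 (SE 0.28).

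Osteoclast genes were mostly negative. Of 14 tested members of the resorption list 12 were negative (median -0.24; -0.09 with no block and without IR replicate 1). At an unadjusted p under 0.05, 4 were lower and 1 higher, beside 2.71% and 4.55% of all genes tested. Acp5, the acid phosphatase that marks osteoclasts, ran from 10.03 to 10.64 log2 CPM in DR (median 10.39) and from 10.16 to 11.39 in IR (median 10.83). It was at -0.38 (SE 0.13; edgeR adjusted p = 0.68), lower in 5 of 6 pairs, with pair 1 at -0.86 and pair 2 at 0.09. Ctsk, the collagen-cutting protease of osteoclasts, was also at -0.38 (SE 0.17), at -0.25 without number 1 and at -0.20 with no block and without IR replicate 1. Mmp9 was at -0.43 (SE 0.15) and the osteoclast receptor Oscar at -0.55 (SE 0.24). Snx10, a sorting protein needed for resorption, was the 1 member higher at an unadjusted p under 0.05, at 0.57 (SE 0.22). It was higher in DR in 6 of 6 pairs, but by only 0.06 and 0.08 in pairs 1 and 6. With no block, Mmp9 was at -0.70 without IR replicate 6 and Snx10 at 0.93 without IR replicate 1.

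The signals that control osteoclasts differed little. Of 9 tested members 7 were negative (median -0.14). Tnfrsf11b, the decoy receptor osteoprotegerin, was at 0.35 (SE 0.23; edgeR adjusted p = 0.734) and Csf1r, the receptor for macrophage colony-stimulating factor, at -0.26 (SE 0.12). Bone-forming genes had a median of 0.04, with 12 of 16 positive and none at an unadjusted p under 0.05. Bglap, or osteocalcin, was at 0.01 (SE 0.21) and changed sign with the settings. Ankh and Enpp1, which raise the mineralization inhibitor pyrophosphate outside cells, were at 0.52 (SE 0.27) and 0.27 (SE 0.15).

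**Figure D3:**
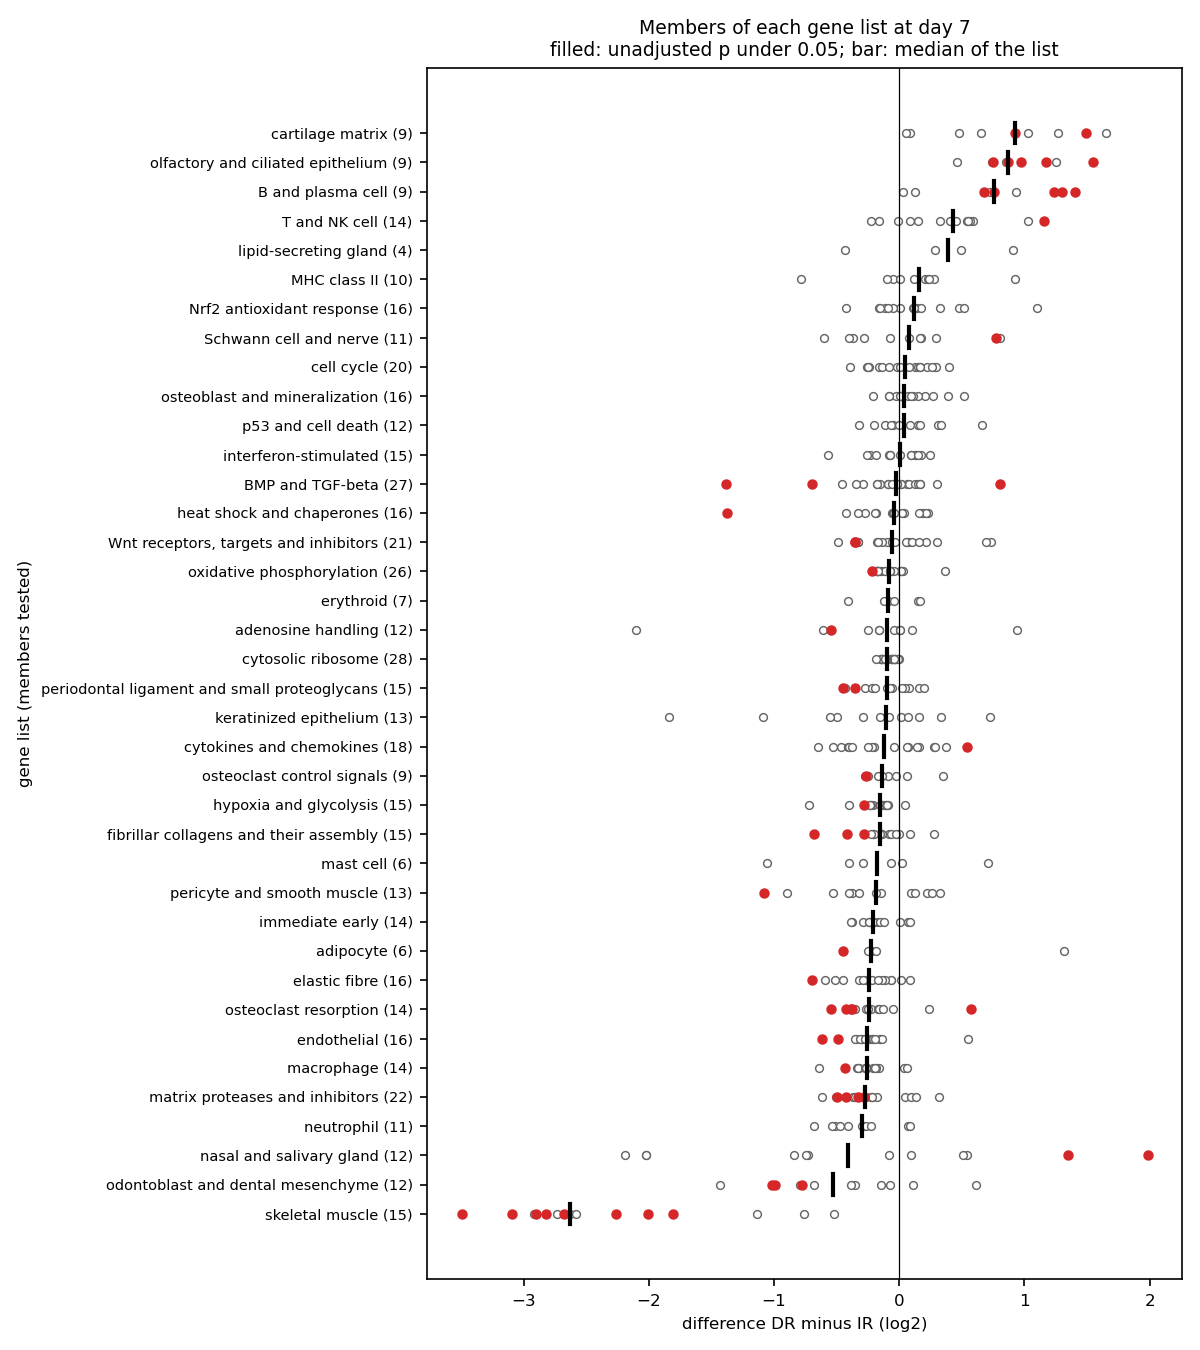
Log2 difference DR minus IR of each tested member (x axis) of 38 gene lists with at least 4 tested members (y axis, with their number). Filled points have an unadjusted p under 0.05 and black bars are list medians, which run from -2.63 in skeletal muscle to 0.92 in cartilage matrix.

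Collagen and elastic fibre genes leaned lower in DR by small amounts, and the pairs did not share 1 direction for ligament genes. Of the collagen list 13 of 15 members were negative (median -0.15) and of the elastic fibre list 14 of 16 (median -0.24). Of the ligament and small proteoglycan list 10 of 15 were negative (median -0.10). The mean of the collagen list and that of the elastic fibre list were each lower in DR in 5 of 6 pairs. The ligament list mean was higher in DR in 4 pairs and lower in 2. With no block and without IR replicate 3, the collagen median was -0.04, the ligament median -0.03 and Col1a1 at -0.02. Col1a1 was at -0.21 (SE 0.15; edgeR adjusted p = 0.753), with IR replicate 3 at 16.41 above the other libraries of its group. Postn was at -0.21 (SE 0.20; edgeR adjusted p = 0.816), higher in 2 pairs and lower in 4. Mfap5, a glycoprotein of elastic microfibrils, ran from 6.12 to 6.96 log2 CPM in DR (median 6.55) and from 6.38 to 7.68 in IR (median 7.34). It was lower in 5 of 6 pairs, at -0.70 (SE 0.19; edgeR adjusted p = 0.68). Col3a1, the collagen of young repair tissue, was at -0.42 (SE 0.13), Col14a1 at -0.68 (SE 0.26), Dcn, a small proteoglycan on collagen fibrils, at -0.36 (SE 0.12), and Thbs4, a tendon and ligament protein, at -0.45 (SE 0.16). Of matrix proteases and their inhibitors 18 of 22 were negative (median -0.28). At an unadjusted p under 0.05, 4 of the 22 were lower, beside 2.71% of all genes tested. The median was -0.16 without number 4, and the list mean was lower in DR in 3 pairs and higher in 3. Mmp23 was at -0.50 (SE 0.13) and Mmp2 at -0.28 (SE 0.10), both lower in 6 of 6 pairs. Col1a1 shares its locus with Sgca.

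The stromal gene Cd248, an antigen of fibroblasts and pericytes, ran from 4.55 to 4.90 log2 CPM in DR (median 4.68) and from 4.79 to 5.54 in IR (median 5.41). It was lower in all 6 pairs, at -0.57 (SE 0.13; edgeR adjusted p = 0.68). Igf2, a growth factor of fetal and growing tissue, was at -0.58 (SE 0.16) and Cdh13, a cadherin of vessels and other cells, at -0.46 (SE 0.13). Sepp1, a secreted selenium carrier, was at -0.45 (SE 0.11) and Ccdc152, which overlaps it, at -0.56 (SE 0.14), so the pair may count the same reads. Egfl8, next to and overlapping Agpat1, was at -0.40 (SE 0.10), and Ide, a peptide-degrading enzyme that overlaps Kif11, at -0.76 (SE 0.21). Smurf1, a ubiquitin ligase that acts on BMP signalling, was lower in 6 of 6 pairs at -0.70 (SE 0.20).

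Lyve1 had the smallest p of the negative genes with an average of at least 3 log2 CPM, below which Smtnl1 had a smaller one (unadjusted p = 7.52e-05; edgeR adjusted p = 0.405). It encodes a hyaluronan receptor of lymphatic vessels and of some tissue macrophages. Its level ran from 3.94 to 4.95 log2 CPM in DR (median 4.71) and from 4.41 to 5.85 in IR (median 5.41). DR was the lower library in all 6 pairs, by 0.46 to 1.47 and number 6 was lowest in both groups. The difference was -0.74 (SE 0.15; edgeR adjusted p = 0.68, DESeq2 adjusted p = 0.0219), and at -0.60 without number 4. In the endothelial list 15 of 16 tested genes lay below 0 (median -0.25). The list mean was lower in DR in 4 pairs and higher in 2. Vwf, the clotting factor stored in endothelium, was lower in 6 of 6 pairs at -0.49 (SE 0.15), and the junction protein Esam was at -0.61 (SE 0.25).

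Cfd, or complement factor D, a protease of the alternative complement pathway made by fat cells and macrophages, separated the groups completely. Its level ran from 6.49 to 6.76 log2 CPM in DR (median 6.65) and from 6.92 to 7.29 in IR (median 7.12), so every DR library lay below every IR library. The difference was -0.45 (SE 0.10; edgeR adjusted p = 0.68), and between -0.50 and -0.41 over the alternative settings. Groups without overlap were seen in 9 genes lower in DR (0.0835%) and 4 higher (0.0371%). Out of 10782 genes some separate with no difference, so such a separation is given as a description and not as a test. The higher ones, chosen after their values were seen, were Pwwp2a at 0.55, Rad51c at 1.19, Ngly1 at 0.74 and Camlg at 0.68. The other lower ones were Agpat1, Prkcdbp, Mmp17, Mmp11, Ocel1, Epdr1, Zmym6 and Rbpms2, between -0.97 for Zmym6 and -0.26 for Prkcdbp.

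Innate immune genes gave small negative medians with wide spread. In the macrophage list 12 of 14 tested genes lay below 0, with a median of -0.26. That median was -0.41 with no block and without IR replicate 6, and -0.15 without number 4. The macrophage list mean was lower in DR in 4 pairs and higher in 2. Among its genes the complement component C1qc was at -0.44 (SE 0.14) and C1qb at -0.27 (SE 0.13). Neutrophil genes were negative in 9 of 11 (median -0.30; -0.05 without number 1), with the list mean lower in DR in 3 pairs and higher in 3. S100a8, an abundant neutrophil protein, was at -0.51 (SE 0.25; edgeR adjusted p = 0.694). The inflammatory cytokine Il1b was at 0.07 (SE 0.44; edgeR adjusted p = 0.978) and Il6 at -0.65 (SE 0.53; edgeR adjusted p = 0.784). Il1b ran from 8.198 to 10.81 log2 CPM in DR and from 6.71 to 10.90 in IR, and a small difference was not detectable at this spread. Mki67, a marker of dividing cells, was at 0.28 (SE 0.15; edgeR adjusted p = 0.705), and the cell cycle list had a median of 0.04 with 11 of 20 positive.

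Ada, the enzyme that turns adenosine into inosine, differed widely between libraries. Its level was 4.37, 4.71, 3.49, 4.62, 5.81 and 4.98 log2 CPM in DR replicates 1 to 6 and 4.55, 7.70, 7.86, 8.49, 4.27 and 6.85 in IR. IR replicates 2, 3, 4 and 6 were above every DR library and IR replicates 1 and 5 were among them. The difference was -2.10 (SE 1.03; edgeR adjusted p = 0.709), lower in 5 of 6 pairs. The same 4 IR libraries had the highest skeletal muscle means of their group, from 4.82 to 6.99. The keratins of moist oral lining, Krt4 and Krt13, were at -1.84 (SE 0.85) and -1.09 (SE 0.63), and Krt4 was highest in IR replicates 2, 3 and 4, at 3.98, 5.11 and 4.66. The part of either tissue in the Ada value was not tested. At day 3 Ada stood at 2.37 (SE 0.71), and the difference between days was -4.89 (edgeR interaction adjusted p = 0.689). Entpd1, which breaks down extracellular ATP, was at -0.55 (SE 0.19).

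**Figure D4:**
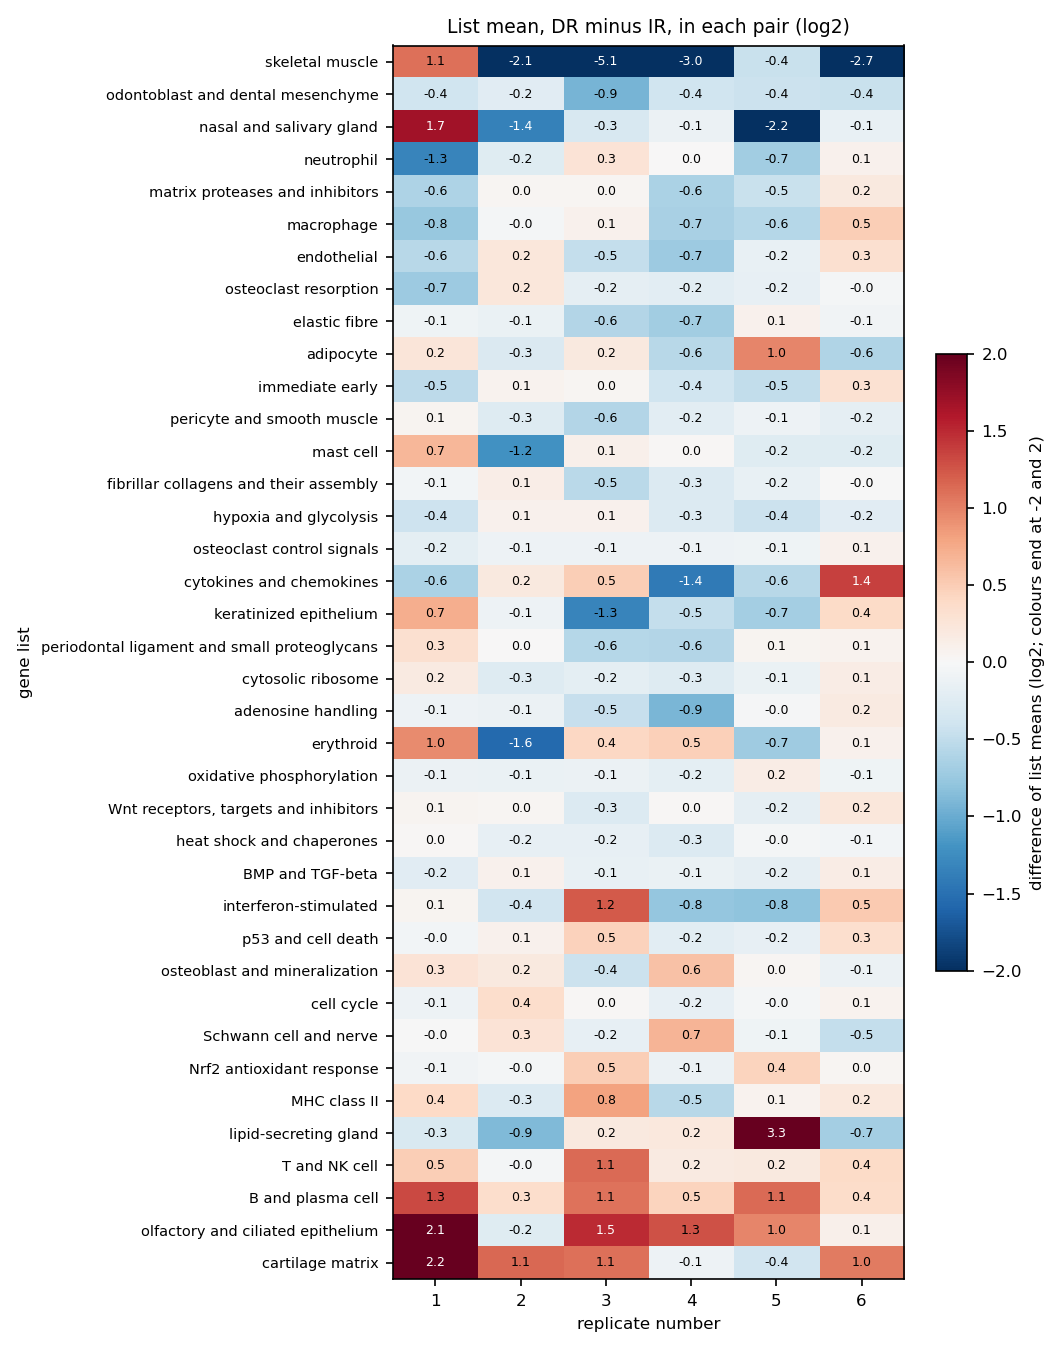
Difference of list means, DR minus IR, in log2 (colour and printed value; colours end at -2 and 2) for each replicate number (x axis) and list (y axis), ordered by list median. The B and plasma cell list is positive and the odontoblast and dental mesenchyme list negative in all 6 pairs, and skeletal muscle is negative in all but pair 1.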

How the data were processed

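Counts per gene entry were deposited by the authors for 25 libraries of total RNA, made from 500 ng with a 3′ end kit, per the labels' protocols. The submitters' processing notes name Bowtie2, edgeR, mm10 and rn6. Which build was used for these counts, how reads were counted and whether strand was used are points not given in the sources used here. For a repeated symbol (149 of 16881) the entry of highest total was kept. The 12 day 7 libraries were fitted with edgeR 4.0.16 in R 4.3.3 (TMM scaling, filterByExpr, robust quasi-likelihood test, replicate number as block, 5 residual degrees of freedom), with Benjamini-Hochberg adjustment over 10782 genes. The script was tested on simulated data. Each day 7 library held 5043739 to 8811662 counts. Alternatives were no block, RLE or total scaling, no filter, DESeq2 1.42.0, limma 3.58.1 voom, 24 libraries together, summed symbols, no ribosomal RNA entries, and leaving out each number, or each library with no block. The interaction of drying and day used 24 libraries and 4 group means. The NT library was not used.

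The number was planned as block. Deviations from the group means, correlated across genes, gave 0.21 to 0.73 for the 6 same-numbered pairs and -0.54 to 0.45 for other numbers. Of the 6 DR libraries 3 correlated best with the IR library of their number, and of the 6 IR libraries 5 with the DR library of theirs. Named genes were, at an average log2 CPM of at least 3, the 12 of smallest p per direction and the 6 per direction of largest median difference among those of 1 sign in all pairs. Up to 4 of smallest p per list, to which that minimum was not applied (13 of the 128 named lay below it), and a fixed panel were added. The members and lists were chosen with earlier results of these data known. Gene overlaps and upstream sequences came from RefSeq's GRCr8 tables, where 14393 symbols matched directly and 2096 by synonym.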

Additional observations from a re-analysis of the deposited data

Results flagged for a closer look

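In 340 sets of 6 libraries (a gene's level, or the mean of a list, within 1 group) 20 had a highest or lowest library whose gap to the next took up more of the whole range than Dixon's critical share for 6 libraries. Chance gives about 1 such set in 20. In log2 CPM, IR replicate 6 was the low library in 14 of them. Among genes these were Il6 at -1.78 (the others from 2.68), Oas1a at 1.85, Entpd1 at 3.48, Ide at 3.61, Mcm4 at 4.01, Dkk3 at 5.55, Ccdc152 at 5.91, Mmp2 at 7.87 and Dcn at 9.46. Among list means they were Wnt receptors, targets and inhibitors at 3.25, the cell cycle at 3.72, interferon-stimulated genes at 3.75, macrophages at 4.57 and matrix proteases and inhibitors at 4.74.

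DR replicate 3 was low for Ms4a1 at 1.004, Cd79b at 2.28 and the B and plasma cell mean at 1.95. DR replicate 4 was low for Odam, a protein of the epithelium that attaches gum to tooth, at 0.90. DR replicate 5 was high for the lipid-secreting gland mean at 6.33 (the others from 1.5 to 3.12), and IR replicate 3 was high for Col1a1 at 16.41.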

How the results depend on the processing

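The count of called genes was 0 in edgeR under every scaling, with and without the replicate block, and without any 1 number or library. It was 1 with no filter on low counts (Vcsa2), 59 in DESeq2 and 4 in limma-voom. Genes at an unadjusted p under 0.05, 783 with the block, numbered 396 with no replicate block, 206 over 24 libraries, and 304 to 1042 without 1 number or library. With no difference, 539 of the 10782 genes of the main fit would be expected. For the interaction, DESeq2 called 11 genes and limma-voom with quality weights 522. The cause was not tested. Of 128 named genes 121 kept their sign in every setting that could be fitted. Bglap was at -0.0776 with no block, -0.0015 with no filter, -0.02662 with quality weights and -0.08885 over 24 libraries, and -0.20 to 0.16 without 1 number or library. Il1b was at -0.12 with no block, -0.13 over 24 libraries and -0.41 to 0.31 without 1 number or library. Such omissions gave -0.10 to 2.20 for Amelx, -0.84 to 0.40 for Hbb, -0.22 to 0.73 for Slc4a1, -1.9e-05 to 0.31 for Ifih1 and -0.03727 to 1.43 for Sox10. Casq1 was too low to test without number 2 or 4. With 5043739 counts in the shallowest library, genes such as Dspp and Tnfsf11 were below what could be tested.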

Other observations

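Other gene groups showed small medians. The 28 tested genes of the cytosolic ribosome were all negative with a median of -0.10 and none at an unadjusted p under 0.05. Their list mean was lower in DR in 4 pairs and higher in 2, at -0.09 ± 0.20 (SD over 6 pairs). Rps27a was at -0.18 (SE 0.10) and Rpl32 at -0.15 (SE 0.09). Genes of oxidative phosphorylation were negative in 21 of 26 (median -0.08), with Cox6c, a subunit of the last respiratory complex, at -0.22 (SE 0.09). Hypoxia and glycolysis genes were negative in 14 of 15 (median -0.15), with Aldoa, an enzyme of glycolysis that is abundant in muscle, at -0.28 (SE 0.10). The mean of this list was lower in DR in 4 pairs and higher in 2. Antioxidant genes of the Nrf2 response were positive in 10 of 16 (median 0.12), and the glutathione transferase Gstm1 was at 1.10 (SE 0.49). With no block it was at 0.0492 without DR replicate 6 and 2.11 without IR replicate 6.

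Nerve genes were mixed, with 6 of 11 Schwann cell and nerve genes positive (median 0.08). Gap43, a protein of growing axons, was at 0.77 (SE 0.32) and Sox10, a Schwann cell factor, at 0.80 (SE 0.37). With no block, Gap43 was at 0.37 without DR replicate 4 and 1.79 without IR replicate 6, and Sox10 at -0.03727 without DR replicate 5. In the heat shock list 9 of 16 members were negative (median -0.04), and Cryab, a small chaperone abundant in muscle, stood apart at -1.37 (SE 0.39). In the BMP and TGF-beta list 17 of 27 members were negative (median -0.03). Its receptor gene Acvr1 was at -1.38 (SE 0.54), with DR from -0.95 to 1.85 log2 CPM and IR from 1.41 to 1.99, and it was at -0.91 with no block and without DR replicate 4. The Wnt inhibitors Dkk3 and Sfrp2 were at -0.35 (SE 0.13) and -0.35 (SE 0.15), in a list with 12 of 21 members negative (median -0.06).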
